A study of Homo sapiens with 8 samples.

Results

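SW1990 is a human cell line from a pancreatic ductal adenocarcinoma, and the pair of libraries described here compares the RNA that came down with ribosomal protein S6 (RPS6) in these cells with the RNA of the lysate before precipitation, the input. The SW1990 pair belongs to a set of 4 such pairs, with 1 RPS6 RNA immunoprecipitation (RIP) library and 1 input library each from SW1990, Hep3B (liver cancer), HCT116 (colorectal cancer) and DU145 (prostate cancer) cells. The labels give no treatment, genotype change or time point for any of the lines. The titles of the liver pair name Hep3B while its cell line field names Huh7, and the pair is called Hep3B here. A precipitation without the RPS6 antibody was not analysed here, so how much of each RIP signal would come down without it was not tested. Each line is 1 culture as far as the labels say, and no pair has a replicate.

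Of the 57756 genes in the deposited table, 18270 averaged 10 or more estimated counts over the 2 SW1990 libraries and were kept. The log2 ratio of a gene is log2 of (RIP count + 1)/(input count + 1) on the deposited estimated counts. The kept genes had a median log2 ratio of 0.02, with quartiles at -1.19 and 1.15. A ratio of at least 2-fold is called higher or lower in the RIP library below, as a description of size in 1 pair. By this rule 5122 genes were higher in the RIP library (28.0% of the genes kept) and 5211 were lower (28.5%). The estimated counts carry the authors' scaling. With counts scaled to the total of each library (CPM) in its place, the median log2 ratio moved by -0.33, and 3876 genes were higher and 6389 lower, so that the share of higher genes among those past 2-fold was 37.8% in place of 49.6%. The 263 genes just inside the minimum, with a mean from 10 to under 11, had a median log2 ratio of -0.45, and the 290 genes just outside it, with a mean from 9 to under 10, had -0.75.

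The SW1990 input library held 37068445 recovered fragments, on 27641 genes, and the RIP library held 38498790, on 23553 genes, within the range of 34630345 to 54209500 over the 8 libraries. A floor of 3 fragments corresponded to 0.0809 CPM in the input and 0.0779 CPM in the RIP. For a gene with 10 fragments in each library, the exact 95% interval of the log2 ratio of fragments ran from -1.42 to 1.42. For one with 1000 fragments it ran from -0.13 to 0.13. Both leave out the scaling to estimated counts, which the intervals of single genes below include. Intervals and floors cover counting error only, since sequenced fragments are not independent molecules and the pair was not repeated.

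RPS6 sits in the small (40S) ribosomal subunit and is phosphorylated by the S6 kinases downstream of mTOR. An mRNA in translation carries several ribosomes along its coding sequence, so a ribosomal protein can be precipitated with mRNA that the protein itself does not contact. The mRNAs of ribosomal proteins and of several translation factors start with a C followed by a run of pyrimidines, the 5′ terminal oligopyrimidine (TOP) tract, through which mTOR and LARP1 control their loading onto ribosomes. RNAs that stay in the nucleus and RNAs translated inside mitochondria are not loaded with cytosolic ribosomes.

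The start windows of 7 genes are shown because mRNAs with such a start lay on both sides of the SW1990 input. Each window runs from 15 bases before to 15 bases from the transcription start of RefSeq (GRCh38.p14), in the direction of the gene, and capitals mark the pyrimidines that run on from the start. The starts were those listed by RefSeq and were not measured in SW1990 cells. The first 4 genes were lower in the RIP library, EEF1A1 was near the median of all genes, and the last 2 were higher.
RPS6, chr9:19380222-19380251, minus strand: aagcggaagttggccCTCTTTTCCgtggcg
RPS12, chr6:132814554-132814583, plus strand: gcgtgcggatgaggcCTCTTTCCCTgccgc
RPL26, chr17:8383179-8383208, minus strand: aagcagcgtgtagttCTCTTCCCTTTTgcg
TPT1, chr13:45341169-45341198, minus strand: agcggctgagtcggcCTTTTCCgcccgctc
EEF1A1, chr6:73521018-73521047, minus strand: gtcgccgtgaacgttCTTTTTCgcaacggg
EIF3D, chr22:36529152-36529181, minus strand: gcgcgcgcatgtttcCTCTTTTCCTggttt
EEF2, chr19:3985449-3985478, minus strand: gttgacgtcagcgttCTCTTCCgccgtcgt

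The SW1990 input carried epithelial markers, which the other lines share in part. CDX2, an intestinal homeobox factor, stood at 86.6 FPKM (fragments per kilobase of transcript, scaled to library depth) in the SW1990 input, against 0.374 in Hep3B, 6.25 in HCT116 and a listed 0 in DU145 cells. The simple epithelial keratins KRT18, KRT8 and KRT19 stood at 756, 531 and 229 FPKM in the SW1990 input, and the adhesion protein EPCAM at 402. KRT19 was higher in the HCT116 input, at 570 FPKM, and EPCAM stood at 370 in the Hep3B input. Of 36 ductal epithelial genes, 28 reached 1 FPKM in the input and 31 were kept, but KRT7, a common ductal keratin, had only 3.17 FPKM and MUC1 1.16 FPKM. Of 25 acinar and endocrine genes, 1 reached 1 FPKM (PRSS1, trypsinogen, at 1.84) and 15 were listed at 0, INS, GCG, SST and PNLIP among them. Of 21 stromal and blood cell genes, 4 reached 1 FPKM and 6 were listed at 0, including PTPRC of leukocytes and CDH5 of endothelium. The summed level of that list was 19.8 FPKM in the input and 41.8 in the RIP, against 2364 and 5436 for the ductal genes. Of 25 markers of the other 3 lines 9 reached 1 FPKM in the SW1990 input and 6 were listed at 0, with a summed level of 440 FPKM, and ASCL2, a factor of intestinal stem cells, was the highest at 153. In bulk libraries, fewer cells of a type and less RNA per cell cannot be told apart.

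**Figure D1:**
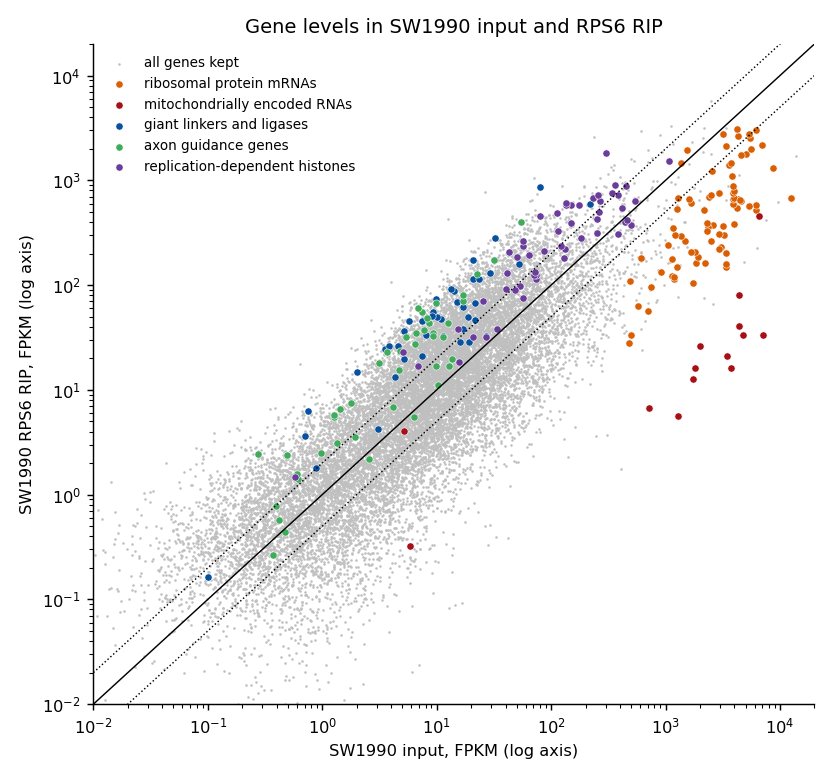
Input FPKM (x axis, log scale) against RIP FPKM (y axis, log scale) of the genes kept in SW1990 cells, 1 point per gene, with 5 lists in colour, a solid line at equal FPKM and dotted lines at 2-fold. Genes listed at 0 in either library or beyond the axes are not drawn. The ribosomal protein genes lie below the diagonal at the right, where RPL26 reached 12539 FPKM in the input and 680 in the RIP.

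RPS6 mRNA, whose protein was the bait, was lower in the RIP than in the input. It had 175447 estimated counts in the input and 22709 in the RIP (4081 and 653 FPKM). The log2 ratio was -2.95, with a 95% counting interval from -2.97 to -2.93, and the RIP library was therefore far below the input beyond counting error. The ratios in Hep3B, HCT116 and DU145 cells were -2.03, -2.47 and -1.53.

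Ribosomal protein mRNAs were low in the SW1990 RIP library almost without exception. All 79 ribosomal protein genes were kept, 73 were lower and 0 higher, and their median log2 ratio was -2.80 beside 0.02 for all genes kept. RPS15A, of the small subunit, was lowest, with 51902 counts in the input and 2109 in the RIP (log2 ratio -4.62). RPS12 went from 53436 to 2496 counts (-4.42) and RPL26, of the large subunit, from 183084 to 9098 (-4.33). RPL26 was the protein-coding gene with the highest FPKM of the SW1990 input, at 12539, and stood at 680 FPKM in the RIP library. RPS19 went from 8673 to 1321 FPKM, and RPL35 from 6960 to 2165 FPKM.

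At the other end of the ribosomal proteins, 6 genes stayed within 2-fold. RPL3 had 72977 counts in the input and 86978 in the RIP (log2 ratio 0.25). RPL4 stood at -0.41, RPL8 at -0.59, RPS15 at -0.76 and RPL7A at -0.94. RPL8, RPS2, RPL18, RPL4 and RPL7A were among the 10 protein-coding genes with the highest FPKM in the RIP library, at 3111, 3048, 2784, 2759 and 2651 FPKM. Many ribosomal protein genes have processed pseudogene copies and host snoRNAs, and how reads were divided between them is not given in the sources used here. Over the ribosomal proteins that overlap no other listed gene the median log2 ratio was -2.66.

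The ribosomal proteins took up 14.1% of the fragments of the SW1990 input (95% Wilson interval 14.09% to 14.11%) and 2.91% of those of the RIP library (2.90% to 2.92%). The input shares of the other lines were lower, at 2.99% in Hep3B, 8.53% in HCT116 and 3.06% in DU145, and the RIP shares were 1.90%, 2.32% and 1.55%. The medians of the list in the other lines were -1.20, -2.34 and -1.17, with 41, 70 and 46 genes lower and 4, 0 and 3 higher. The difference between SW1990 and the other lines was fitted with edgeR's quasi-likelihood test of the interaction, in which the lone SW1990 pair is assumed to vary like the other pairs. It called 0 of the 79 ribosomal proteins, with 21 of them lower and 0 higher in SW1990 at an unadjusted p under 0.05, beside 642 lower and 386 higher of all 19910 genes tested.

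A pyrimidine tract at the RefSeq start did not separate low from high mRNAs by itself. A tract was read as a C at a listed start followed by 4 bases that are C or T, on the strand of the gene, which 4.07% of 35116 listed starts had. Starts on chromosome 8 were not at hand, so its genes, RPL8 and RPS20 among them, are left out. Of the 63 ribosomal proteins with a listed start, 47 had a tract and a median log2 ratio of -2.80, with 46 lower in the RIP library, and 16 had none and a median of -2.56, with 13 lower. Among all 10777 kept protein-coding genes with a listed start, the 790 with a tract had a median of 0.10 and the 9987 without one had 0.16. Outside the ribosomal proteins and translation factors, tract genes shorter than the median length had a median of -0.37 (400 genes) and longer ones 0.73 (332 genes), beside -0.18 and 0.50 for genes without a tract. A match is a description of these letters and no measure of where transcription starts in SW1990 cells.

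**Figure D2:**
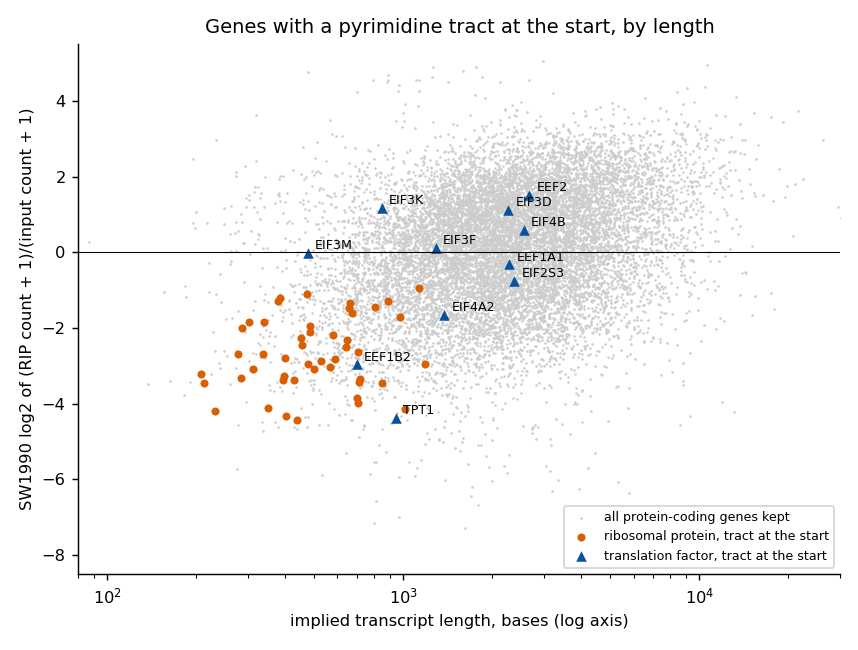
Log2 ratio of RIP to input in SW1990 cells (y axis) against the implied transcript length in bases (x axis, log scale) of kept protein-coding genes (grey), with ribosomal proteins (orange circles) and translation factors (blue triangles) that carry a tract at the start. These genes run from RPS12 at -4.42 to EEF2 at 1.51, the ribosomal proteins lie below 0, and genes beyond the axes are not drawn.

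Of 48 translation factors kept, 10 were higher and 13 lower, shares no larger than those of all genes kept (28.0% and 28.5%), with a median of 0.02. TPT1, a TOP mRNA for the tumour protein TCTP, stood at the low end, with 258936 counts in the input and 12559 in the RIP (7582 and 421 FPKM, log2 ratio -4.37). EEF1B2, an exchange factor of elongation, stood at -2.96, and the initiation factor 3 subunits EIF3E and EIF3H at -2.95 and -2.69. The subunits EIF3B and EIF3D of the same complex were higher, at 1.87 and 1.12. EIF4G1, the scaffold of the cap-binding complex, was highest, with 15420 counts in the input and 67614 in the RIP (2.13). EEF2, the translocase of elongation, went from 107198 to 305658 counts (1.51), and EEF1A1 from 280136 to 225117 (-0.32).

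PABPC1, the cytoplasmic poly(A)-binding protein, was the protein-coding gene with the highest FPKM in the SW1990 RIP library. It stood at 2511 FPKM in the input and 5729 in the RIP, and its log2 ratio was 1.004. The ratios in Hep3B, HCT116 and DU145 cells were -0.41, -0.03 and -0.31, so that SW1990 was the line in which it was above 0. EEF2 was next in the RIP library at 3285 FPKM, followed by EEF1A1 at 3139, and the actins ACTB and ACTG1 stood at 2973 and 2696 FPKM. ACTB went from 44352 to 195881 counts (2.14).

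RNAs encoded by the mitochondrial genome were the lowest group of the SW1990 pair. Of 15 kept, 14 were lower and 0 higher, and the median log2 ratio was -6.62. Of these 15, 13 overlap another listed gene, and the other 2, MT-CO1 and MT-RNR1, had a median of -1.98. MT-CO2, a subunit of cytochrome oxidase, had 69792 counts in the input and 478 in the RIP (-7.19). MT-ND4 had 223378 and 1903 (-6.87), and MT-ATP6 had 76835 and 384 (-7.64). MT-ND3 had 5071 counts in the input and 0 in the RIP, which is at least 1423-fold lower at a floor of 3 fragments in the RIP library. MT-CO1, of 316823 and 25804 counts, was less far below the input (-3.62). MT-RNR1, the RNA of the small mitochondrial ribosomal subunit, stood at -0.34 but had only 197 and 156 counts.

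The mitochondrially encoded RNAs took up 2.97% of the input and 0.0745% of the RIP fragments in SW1990 cells. The medians of the list in the other lines were -5.17, -3.80 and -3.95. In the edgeR interaction test 0 of 15 were called, while 11 were lower and 0 higher in SW1990 at an unadjusted p under 0.05. Nuclear copies of mitochondrial sequence followed the same direction, and MTATP6P1 and MTND4P12 stood at -7.59 and -6.70. MTND6P4 had 308 counts in the input and 0 in the RIP, which is at least 86.3-fold lower. Such copies share sequence with the mitochondrial genes, and their counts are uncertain.

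Respiratory chain subunits encoded in the nucleus and made on cytosolic ribosomes were also mostly lower, to a smaller extent. Of 76 kept, 54 were lower and 7 higher, with a median of -1.42. UQCRB, a small subunit of complex III, had 3050 counts in the input and 196 in the RIP (-3.95), and NDUFA5 of complex I stood at -3.64. Subunits with long mRNAs were at the other end. UQCRC1 went from 5997 to 23454 counts (1.97), ATP5B, the catalytic subunit of ATP synthase, from 18610 to 70221 (1.92), and SDHA, the flavoprotein of complex II, from 2921 to 9549 (1.71).

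Long noncoding RNAs and pseudogenes had lower medians than mRNAs. Protein-coding genes had a median of 0.19 (13276 genes, 4105 higher and 3244 lower) and long noncoding RNAs -0.70 (603 genes, 96 higher and 260 lower). Genes that RefSeq lists as pseudogenes had -0.75 (788 genes, 119 higher and 365 lower), and those listed as transcribed pseudogenes -0.20 (345 genes, 64 higher and 109 lower). In Hep3B, HCT116 and DU145 cells the long noncoding RNAs also kept there had medians of -0.59, -0.62 and -0.60. The pseudogenes of the -0.75 group also kept there had 0.03, -0.08 and -0.18. Protein-coding genes took up 92.0% of the input and 96.8% of the RIP fragments, and long noncoding RNAs 1.21% and 0.485%. NEAT1, the architectural RNA of paraspeckles, had 11384 counts in the input and 1183 in the RIP (-3.26). MALAT1, a nuclear speckle RNA, had 34486 and 8868 (-1.96), and TUG1 had 13695 and 3436 (-1.99). H19, an imprinted RNA that is exported to the cytoplasm, stood at 1213 FPKM in the input and 918 in the RIP (-0.57), and KCNQ1OT1 at 0.80. Of 17 nuclear-retained long noncoding RNAs, 12 were lower and 0 higher, with a median of -1.84, which was -1.13 on FPKM + 1.

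Spliced host RNAs of snoRNAs, which are short, degraded on translation and often start with a TOP tract, stood still lower. Of 18 kept, 13 were lower and 0 higher, with a median of -2.21. SNHG6 had 2708 counts in the input and 107 in the RIP (-4.65), ZFAS1 had 5051 and 315 (-4.00), and GAS5 had 17006 and 2497 (-2.77). SNHG16 stood slightly above the input, with 4150 and 4820 counts (0.22), against -0.94, -0.78 and -0.97 in the other lines. That ratio is smaller than the move of the SW1990 median with CPM (-0.33), so its sign rests on the scaling.

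Small RNAs of the nucleus and of the signal recognition particle lay on both sides of the input in SW1990 cells. The 7SL RNAs RN7SL1 and RN7SL2, the RNA core of that particle, went from 26993 to 983 counts (-4.78) and from 21034 to 738 (-4.83). All genes with 7SL names together held 0.192% of the SW1990 input and 0.00571% of the RIP fragments. The inputs of Hep3B, HCT116 and DU145 cells held 4.91%, 2.78% and 2.54%, and their RIP libraries 0.0117%, 0.0203% and 0.0325%. RPPH1, the RNA of RNase P, went from 56799 to 3918 counts (-3.86), and RN7SK, which holds the elongation factor P-TEFb, from 77566 to 9392 (-3.05).

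RMRP, the RNA of the related RNase MRP, which acts in ribosomal RNA maturation, stood on the other side. It had 5838 counts in the SW1990 input and 8799 in the RIP library (0.59), against -6.21, -3.45 and -3.66 in Hep3B, HCT116 and DU145 cells. The Cajal body RNAs SCARNA10 and SCARNA2, guides of snRNA modification, were higher too, at 307 and 671 counts (1.13) and at 58.6 and 132 counts (1.16). SCARNA10 stood at -4.46, -2.62 and -3.55 and SCARNA2 at -3.38, -3.46 and -2.56 in the other lines. Only ratios are set side by side here, and whether input or RIP levels differed between the lines was not tested. The 17 nuclear small RNAs had a median of -0.74 in SW1990 cells, with 2 higher and 7 lower, against -4.81, -2.86 and -2.70 in the other lines. edgeR called 0 of the 17 in the interaction test, with an adjusted p of 0.639 for SCARNA10 and 0.712 for SCARNA2, while 7 were higher and 0 lower in SW1990 at an unadjusted p under 0.05. SNORA23 had 1 fragment in the SW1990 RIP library, was below the minimum and was not kept.

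**Figure D3:**
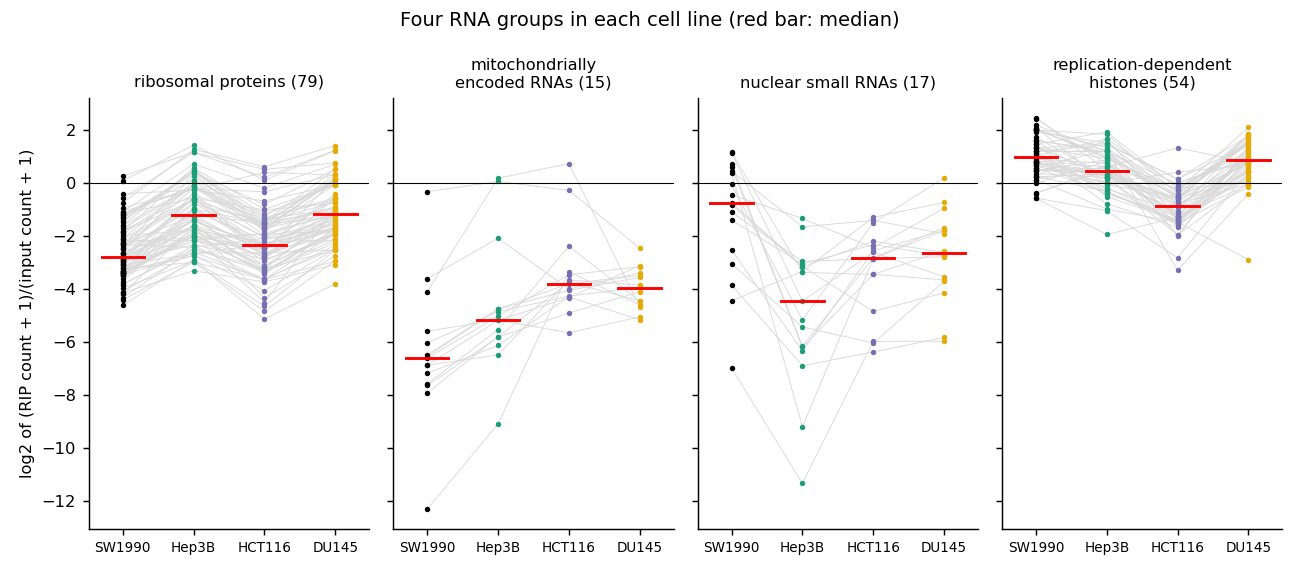
Log2 ratio of RIP to input (y axis) in SW1990, Hep3B, HCT116 and DU145 cells (x axis) for 4 RNA groups, with 1 point per gene kept in SW1990, grey lines that join the points of a gene and a red bar at the median. The medians in SW1990 cells are -2.80 for ribosomal proteins, -6.62 for mitochondrially encoded RNAs, -0.74 for nuclear small RNAs and 0.96 for histones.

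Replication-dependent histone mRNAs, which end in a stem-loop and carry no poly(A) tail, were higher in the RIP library or near the input. Of 54 kept, 27 were higher and 0 lower, with a median of 0.96. HIST1H4D had 2140 counts in the input and 11775 in the RIP (303 and 1838 FPKM, 2.46), HIST1H2AB had 930 and 4983 (2.42), and HIST1H2AC had 1874 and 7593 (2.02). The linker histone HIST1H1D and the core histone HIST1H4C were lowest, both at -0.58. The medians of the list were 0.44 in Hep3B, -0.86 in HCT116 and 0.92 in DU145 cells. Histone genes are near-identical copies, and counts of single members are uncertain. In the edgeR interaction test 0 of 58 were called, with 6 higher and 0 lower at an unadjusted p under 0.05.

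Large mRNAs of adhesion, guidance and ubiquitin ligation formed the high end of SW1990 cells. Of 41 giant cytoskeletal linkers and ligases, 35 were higher and 0 lower, with a median of 2.24. FLNA, the actin crosslinker filamin A, went from 16149 to 221277 counts (3.78), UBR4, a ligase of the N-degron pathway, from 6612 to 100572 (3.93), and HUWE1 from 10786 to 112383 (3.38). KMT2A, a histone methyltransferase, was lowest at 0.18. The list took up 0.656% of the input and 2.74% of the RIP fragments. The other lines had medians of 1.53, 2.78 and 2.27.

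Of 38 collagens, laminins and integrins, 26 were higher and 2 lower, with a median of 1.78. On FPKM + 1, which shrinks low genes, 18 were higher and the median was 0.77. AGRN, agrin of basement membranes, went from 13046 to 128273 counts (3.30), LAMA5, a laminin chain, from 6554 to 68015 (3.38), and HSPG2, perlecan, from 1844 to 22493 (3.61). ITGB4, the laminin receptor of hemidesmosomes, went from 3205 to 39971 counts (3.64). ITGB1, the common beta chain of integrins, ran the other way, from 14884 to 4434 (-1.75). Of 45 axon guidance ligands and receptors, 35 were higher and 1 lower, with a median of 2.03. The semaphorin receptor PLXNB2 went from 9474 to 82586 counts (3.12) and the semaphorin SEMA6B from 694 to 6832 (3.30), while the small ligand EFNA5 stayed near the input, at 358 and 299 (-0.26).

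Of 38 receptor kinase and MAPK genes, 17 were higher and 4 lower (median 0.91), beside 28.0% and 28.5% of all genes kept. The receptor kinase ERBB2 went from 3300 to 27804 counts (19.7 and 212 FPKM, 3.07), against 2.49, 2.43 and 2.39 in the other lines. ERBB3 stood at 2.57, EPHA2 at 2.39 and EGFR at 2.12. The transcription factor MYC went from 6866 to 16320 counts (1.25). The EGFR ligands AREG and EREG stood at -1.93 and -1.84.

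The mTOR pathway, which phosphorylates RPS6, showed the same split by member. Of 46 kept, 17 were higher and 8 lower, with a median of 0.52. The kinase MTOR went from 4612 to 43002 counts (3.22), its scaffold RPTOR from 939 to 11142 (3.57) and the inhibitor TSC2 from 1575 to 13784 (3.13). LARP1, which binds TOP mRNAs, stood at 2.08. The GTPase RHEB went from 7184 to 1767 counts (-2.02) and the Ragulator subunit LAMTOR3 from 1489 to 250 (-2.57). The S6 kinase RPS6KB1 stood at -1.11.

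Ductal genes leaned higher in the RIP library, beside 28.0% higher and 28.5% lower of all genes kept. The classical, basal-like and mucin lists followed no common direction. Of 31 ductal genes kept, 13 were higher and 3 lower, with a median of 0.84, and CDX2 had 11700 counts in the input and 24339 in the RIP (1.06, 95% counting interval 1.02 to 1.09). KRT8 and KRT19 stood at 1.56 and 1.62, and EPCAM at -0.12. ESRP1, an epithelial splicing factor, was at -1.02, against -0.46, -0.44 and -0.40 in the other lines. Of 9 genes of the classical pancreatic cancer subtype, 3 were higher and 3 lower. HNF4A and GATA6, its transcription factors, stood at 2.24 and 1.72, and the secreted AGR2 at -2.87. Of 15 basal-like genes 4 were higher and 8 lower, with a median of -1.27, which was -0.39 on FPKM + 1. Of 26 mucins, trefoil factors and mucin glycosyltransferases, 9 were higher and 7 lower (0.13), with GALNT10, which starts mucin-type glycans, at 1.97 against 1.24, 1.22 and 1.29 in the other lines.

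Among metabolic and stress genes, glycolysis stood apart from the shares over all genes kept (28.0% higher and 28.5% lower). Of 24 genes 15 were higher and 0 lower, with a median of 1.43. HK1, a hexokinase, went from 1218 to 7009 counts (2.52), ENO1, enolase, from 25431 to 92531 (1.86) and PKM, pyruvate kinase, from 35713 to 122640 (1.78), while GAPDH stayed at 0.17. Of 28 cholesterol synthesis genes 10 were higher and 7 lower (0.34, and 0.003 on CPM), with GGPS1, which makes geranylgeranyl diphosphate, at -2.27. Of 31 genes of the integrated stress response 15 were higher and 7 lower (0.54). ATF4, its transcription factor, had 47705 counts in the input and 15601 in the RIP (-1.61), and the sensor kinase EIF2AK2 stood at -2.42, while the target SESN2 stood at 2.27. Of 45 genes of the unfolded protein response and the translocon 9 were higher and 16 lower (-0.20), with RPN2, of the oligosaccharyltransferase, at 2.56 and SRP19 at -3.53.

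Subunits of the same machine could lie far apart, and outside the splicing factors and the proteasome the counts were near the shares over all genes kept (28.0% higher and 28.5% lower). Of 53 splicing factors 7 were higher and 24 lower, with a median of -0.83. PRPF8, the largest protein of the spliceosome core, went from 8804 to 176897 counts (4.33), and the small Sm protein SNRPF from 7336 to 318 (-4.52). Of 68 ribosome biogenesis factors 15 were higher and 23 lower (-0.40), with BOP1 at 2.93 and MDN1 at 2.67 but the nucleolar proteins NPM1 and NCL at -2.89 and -2.70. Of 39 proteasome genes 4 were higher and 5 lower (-0.40), with PSMD2 at 2.24 and PSMA3 at -1.97. Of 46 DNA replication genes 15 were higher and 12 lower (-0.24), with POLD1 at 2.98 and RPA3 at -4.14. Of 26 heat shock proteins 5 were higher and 8 lower (-0.03), with TRAP1 at 2.04 and the small co-chaperonin HSPE1 at -4.61.

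Among iron genes the share of lower ones was near that of all genes kept (28.5%), while more of the selenoproteins were lower. The ferritin chains FTL and FTH1 went from 107896 to 26547 counts (-2.02) and from 54114 to 19834 (-1.45). Their mRNAs can be held back by iron regulatory proteins, which was not tested here. The iron list of 20 had 3 higher and 6 lower (-0.14). Of 23 selenoproteins and their machinery, which read a stop codon as selenocysteine, 4 were higher and 12 lower (-1.05, and -0.57 on FPKM + 1). GPX4, the lipid peroxidase, went from 33467 to 6257 counts (-2.42), and the elongation factor EEFSEC stood at 1.98. Of 21 S100 proteins and annexins 3 were higher and 8 lower (-0.33), with S100A10 at -2.64 and ANXA6 at 2.06. Of 24 genes of the p53 response 7 were higher and 5 lower (0.29). In the other 3 lists, 4 of 11 stromal and blood genes were higher and 2 lower, 4 of 12 markers of the other lines were higher and 1 lower, and 3 acinar and endocrine genes were kept.

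**Figure D4:**
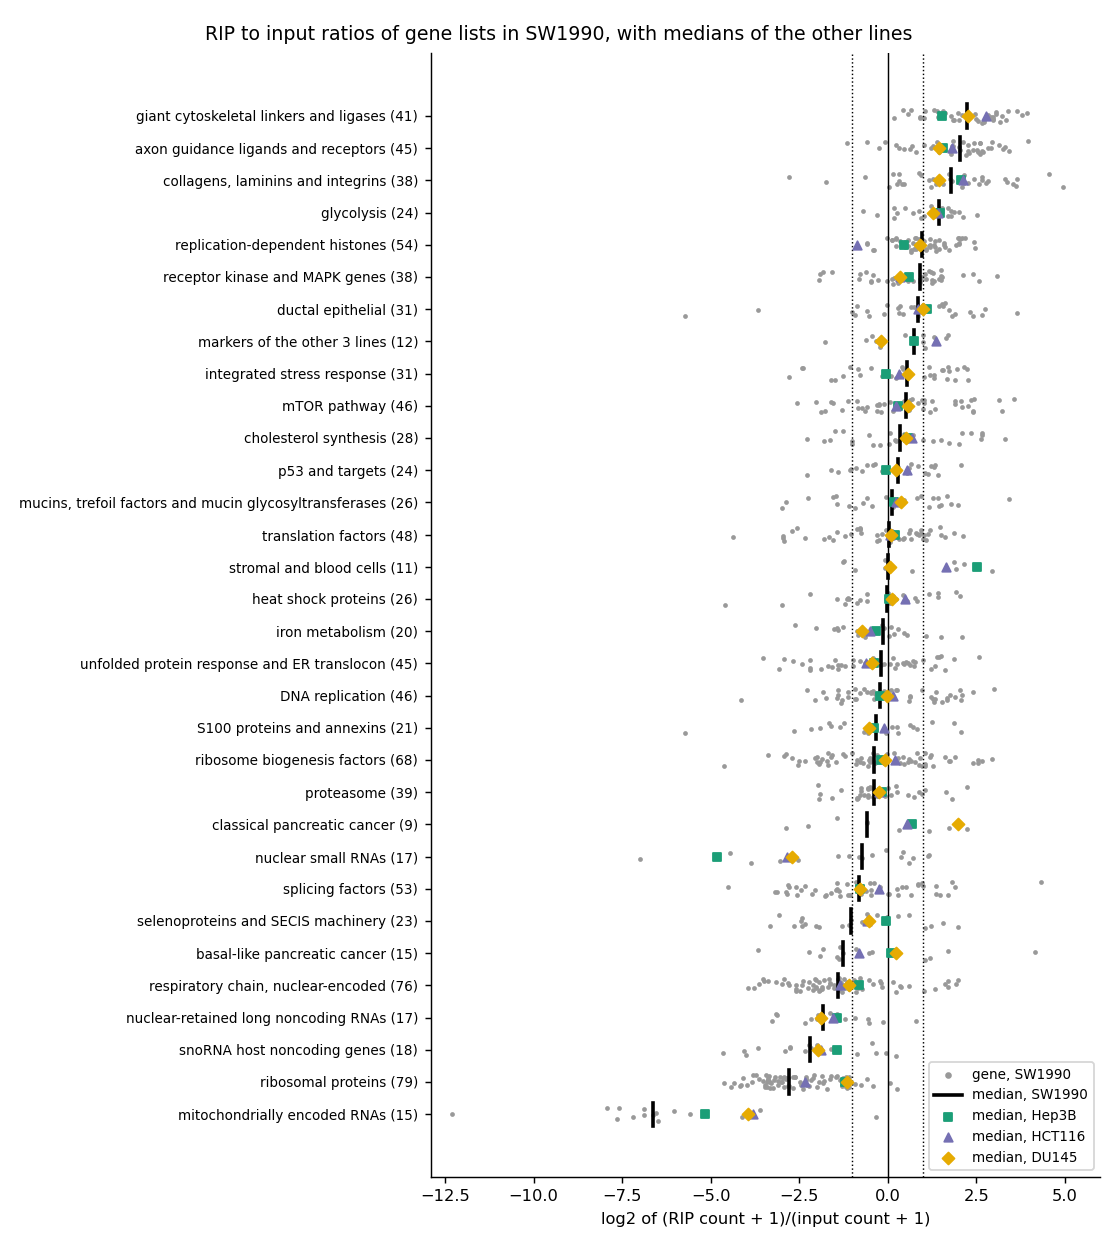
Log2 ratio of RIP to input (x axis) in SW1990 cells for the gene lists with at least 5 genes kept (y axis, number kept in brackets), with 1 grey point per gene, a black bar at the SW1990 median, coloured marks at the medians of the other lines over the genes kept in each, and dotted lines at 2-fold. Mitochondrially encoded RNAs lie lowest at a median of -6.62 and the giant cytoskeletal linkers and ligases highest at 2.24.

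By single gene, the highest log2 ratio among protein-coding genes that averaged 100 counts or more was that of LAMA1, a laminin chain, with 16.6 counts in the input and 541 in the RIP (4.94, 95% counting interval 4.33 to 5.82). PRPF8 (4.33) and the protocadherin DCHS1 (4.09) came next. The order rests on the scale at low counts, since on FPKM + 1 LAMA1 had 1.52, DCHS1 1.06 and PRPF8 4.79. INTS1, the largest Integrator subunit, went from 2742 to 42325 counts (3.95), and HTT, huntingtin, from 3861 to 53583 (3.79, against 2.59, 2.76 and 2.77 in the other lines). UBR4, WFIKKN1, PHLPP1 and ATG2A stood at 3.93, 3.86, 3.83 and 3.81. ATP5J2-PTCD1, at 3.96, is a readthrough entry that shares exons with other genes.

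At the low end, PIN4, a parvulin isomerase, had 479 counts in the input and 2.38 in the RIP, which is 2 fragments (-7.15, counting interval -10.70 to -5.79), against -3.34, -3.19 and -2.88 in the other lines. NSRP1, a splicing regulator, had 945 and 8.32 (-6.67), and ESF1, a nucleolar protein, 668 and 11.9 (-5.70). JRKL, NDUFAF2, PFDN4, FRA10AC1 and C16orf87 stood at -5.64, -5.54, -5.10, -4.95 and -4.73. IDNK had 1 RIP fragment and a log2 ratio of -6.57 with a counting interval from -12.76 to -4.95. The readthrough entry ISY1-RAB43 had 271 counts in the input and none in the RIP library, at least 75.9-fold lower, but its ratios in the other lines were 5.76, 6.497 and -7.97, and its counts depend on how reads were split among overlapping genes. The same holds for ATP6V1G2-DDX39B, the highest entry outside protein-coding genes (0.195 and 484 counts), and for SENP3-EIF4A1 (3.84). The pseudogenes PKD1P5, PKD1P1 and POLRMTP1 stood at 3.45, 3.41 and 2.90, and PRORSD1P, with 1 RIP fragment, at -6.60 (counting interval -12.78 to -4.98).

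Length, promoter composition and level all went with the SW1990 ratio. The length of a gene was taken as that implied by its FPKM and count in the input. In 5 groups of 2627 protein-coding genes by length, with median lengths of 880, 1537, 2208, 3167 and 5119 bases, the median log2 ratio was -0.63, 0.10, 0.25, 0.40 and 0.87. The share of genes higher in the RIP library went from 14.01% in the shortest group to 46.6% in the longest, and the share lower from 41.1% to 13.6%. The Spearman correlation with length was 0.30 across 13135 genes, which are not independent replicates. In the 5 groups by GC content of 300 bases at the listed start, 250 before it and 50 from it, the medians went from -0.22 to 0.82. Genes of chromosome 8, for which no such sequences were at hand, are left out of these groups. In those by input FPKM they went from 0.66 to -0.54, and the input is also the denominator of the ratio.

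Length and GC content were also read together. Genes both in the longest and in the most GC-rich group had a median of 1.42, with 59.6% higher and 7.14% lower, while the shortest genes at the highest GC had -0.09. The shortest group held 76 ribosomal proteins, at a median of -2.80, and 59 respiratory chain genes, at -1.63. The other 2492 genes of that group had a median of -0.54, with 38.6% lower, beside 93.4% for the ribosomal proteins in it. By chromosome, protein-coding genes had their highest medians on chromosomes 22 (1.08) and 16 (0.80) and their lowest on 13 (-0.59) and 4 (-0.56). The other lines had 0.99, 0.996 and 0.98 on chromosome 22 and -0.55, -0.61 and -0.59 on chromosome 4. The part of length, GC content and level in the differences between the gene lists was not tested.

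**Figure D5:**
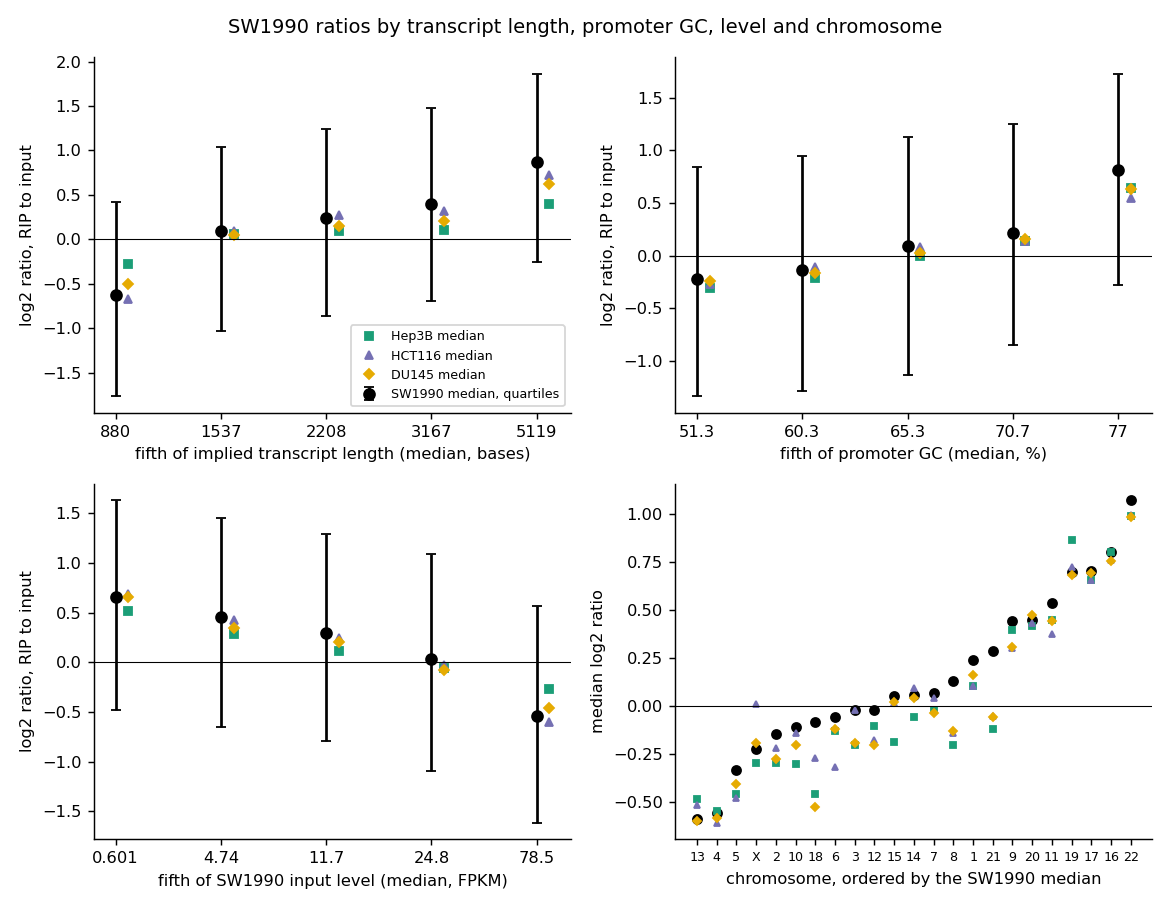
Median log2 ratio of RIP to input in SW1990 cells (y axis) by group of protein-coding genes, in order of implied length, of GC content around the listed start and of input FPKM (x axes, labelled with the median of each group), with bars for the quartiles, and by chromosome in the order of the SW1990 median. Coloured marks are the medians of the other lines. The SW1990 median goes from -0.63 to 0.87 with length, from -0.22 to 0.82 with GC content and from 0.66 to -0.54 with input FPKM.

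Across the 14432 genes kept in all 4 lines, the SW1990 ratios ran with those of the other lines, with a Spearman correlation of 0.81 with Hep3B, 0.85 with HCT116 and 0.86 with DU145, and the standard deviation of the log2 ratio was 1.67 in SW1990 against 1.59, 1.55 and 1.47. The edgeR interaction test over all 8 libraries called 0 of 19910 genes different between SW1990 and the other 3 lines (0.00%). There were 1028 genes at an unadjusted p under 0.05, and the smallest adjusted p was 0.358. With 1 SW1990 pair the test can miss real differences, so this count does not show that the ratios were equal. DESeq2 called 65 of 16050, of which 23 were higher in SW1990, and limma called 0. Without the DU145 pair edgeR called 39 genes, without Hep3B 11 and without HCT116 1. No gene is therefore called particular to SW1990 here.

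The gene with that smallest adjusted p was MMP14, a membrane-bound collagenase, with 109 counts in the SW1990 input and 17.8 in the RIP library (-2.55), against 1.48, 1.601 and 1.33 in the other lines. Its interaction was -4.08 on the log2 scale. The SE of 0.49 was worked back from this value and the F value of the edgeR test, and was not estimated separately. MYLK, a myosin kinase, had 141 and 53.5 counts (-1.38), against 1.31, 1.29 and 1.39, and an edgeR adjusted p of 0.712.

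The other 3 lines, fitted without SW1990, gave a set of genes that the SW1990 pair had no part in choosing. edgeR with the line as a block called 4680 genes higher in the RIP (23.7%) and 4267 lower (21.6%) of 19735. Of the 4475 higher genes that were kept in SW1990, 3502 were at least 2-fold higher there (78.3%), 14 were at least 2-fold lower, and the median was 1.58. Of the 4041 lower genes kept, 3004 were at least 2-fold lower in SW1990 (74.3%), 9 were at least 2-fold higher, and the median was -1.63. These made up 72.8% of the 4813 genes higher in SW1990 that were tested and 64.4% of the 4667 lower ones. The 14 opposite genes included MMP14, COL9A3, AKR1B1 and MYLK, and the 9 included SCARNA10, SCARNA2 and BNIP3.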

How the data were processed

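RNA was precipitated with an RPS6 antibody and the Magna RIP kit, and libraries were made with a stranded total RNA kit. Per the labels, the authors processed reads with CASAVA 1.8 and aligned them to hg19 with TopHat2 2.0.9. The counting tool, the annotation and any filter are not given in the sources used here. The authors deposited an FPKM per gene and library, normalized for length and depth, and an estimated count, which is scaled by 1 factor per library and need not be whole. Columns with the authors' own fold changes, p-values and q-values were not used.

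The design assumed counts, and the estimated counts were rounded to whole numbers for edgeR 4.0.16 (R 4.3.3), scaled by TMM and blocked on line, with Benjamini-Hochberg adjustment at 0.05. The interaction set the SW1990 RIP effect against the mean of the other 3 lines, over genes with an average of 10 counts or more. A run on simulated counts, at a fixed dispersion not taken from these data, checked the script and not the power of the test here. Fragments were recovered by dividing counts by the value of a single fragment, read from the low counts (0.977 in the SW1990 input and 1.19 in the RIP), which made 90.3% and 90.0% of the values above 0 whole within 0.02. Intervals are exact binomial for ratios and Wilson for shares, at 95%. Symbols were matched to RefSeq (GRCh38.p14), 31344 directly, 2334 by a synonym and 24078 not at all, and only sequences and starts carry its coordinates. Genes whose span overlaps another listed gene (10881 of those kept) may share reads.

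The genes and the 34 lists were chosen with earlier results of these data known. Named are the 10 highest and lowest protein-coding genes and 5 other genes at each end that averaged 100 counts or more, the 10 highest FPKM values of each library, the ends of each list, RPS6 and CDX2. MMP14, MYLK, COL9A3, AKR1B1 and BNIP3, and which list members are described beyond those ends, were picked after their values were seen. No gene passed the interaction test, so the part of the rule on its calls names none. Some genes are not reported here. Alternatives used DESeq2 1.42.0, limma 3.58.1 on log2 FPKM, other scalings, minimums and folds, left out each line or the block, and, added after seeing the data, took only genes that overlap no other gene and fitted the other 3 lines alone. Ratios, lists and figures used pandas 2.3.3, Python 3.11.15, matplotlib 3.10.9, SciPy 1.17.1 and NumPy 2.4.6.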

Additional observations from a re-analysis of the deposited data

Results flagged for a closer look

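Over 163 genes kept in all lines and 30 lists, the SW1990 ratio was set against those of the other 3 lines, and values far from the other lines are listed first. Chance passes the limit used for a far value in about 1 in 20 cases when any of the 4 lines may be the far one. It does so less often for SW1990 alone. Neither rate holds for genes named for an extreme SW1990 ratio (HTT, PIN4, IDNK and FRA10AC1 among them) or after their values were seen. ERBB2 had a log2 ratio of 3.07 in SW1990 cells and 2.39 to 2.49 in the other lines. HTT had 3.79 against 2.59 to 2.77. GALNT10 had 1.97 against 1.22 to 1.29. ESRP1 had -1.02 against -0.46 to -0.40. TUG1 had -1.99 against -1.56 to -1.49. FRA10AC1 had -4.95 against -2.19 to -1.90. PIN4 had -7.15 against -3.34 to -2.88, and IDNK -6.57 against -1.93 to -1.51, both on 1 or 2 RIP fragments.

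In a second set the SW1990 ratio had the opposite sign to all other lines. MMP14 (-2.55), MYLK (-1.38) and SNHG16 (0.22) were in both sets. The sign of SNHG16 rests on the authors' scaling, since the median log2 ratio in SW1990 moved by -0.33 with CPM. PABPC1 had 1.004 in SW1990 cells, RMRP 0.59, SCARNA10 1.13, SCARNA2 1.16 and BNIP3 1.24, each against values below 0 in the other lines. RPL8 had -0.59, RPS15 -0.76, MUC1 -0.60 and AKR1B1 -1.70, each against values above 0. MUC1 rested on only 30 fragments in the SW1990 input and 16 in the RIP library. The opposite signs as such were not tested, and edgeR's interaction test called none of these genes, as it called 0 genes in all, with 1028 at an unadjusted p under 0.05 and 65 by DESeq2. MMP14, MYLK, AKR1B1 and BNIP3 were picked after their values were seen.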

How the results depend on the processing

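Ratios rest on 1 library a side and their error between cultures is unknown. With FPKM + 1 on the log2 scale 3308 genes were at least 2-fold lower, with no minimum on counts 9788, and with a limit of 4-fold 1767 were higher and 2505 lower. Among genes that overlap no other gene 2082 were higher and 2140 lower, since fewer genes were counted. For the 32 lists whose median has a 95% interval (2 lists of 3 genes have none), 7 of 224 values under alternatives left it. Of the 12 medians past 2-fold 0 changed sign, but collagens, laminins and integrins (0.77), basal-like genes (-0.39) and selenoproteins (-0.57) fell inside 2-fold with FPKM + 1, and 10 lists with medians within 2-fold changed sign, among them translation factors, mucins and ribosome biogenesis factors. Of 323 values of named genes 145 left the counting interval and 0 of those past 2-fold reversed. The interaction test called 65 genes with DESeq2, 119 with no minimum on counts, and between 1 and 39 when a line was left out (11 without Hep3B, 1 without HCT116 and 39 without DU145), against 0 in all other settings. The cause was not tested. Replicates could not be paired because each group holds 1 library, while RIP and input were paired by cell line as the block. Without that block 0 genes were called, with 111 at an unadjusted p under 0.05 in edgeR. At 10 fragments in both libraries a 2-fold difference is within the counting interval.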
